A study of Mus musculus with 3 samples.

Results

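Toll-like receptors are described here in bone marrow cells of mice with TBLR1-RARα (TR) leukemia and in lin- marrow cells of normal mice. The members were 10 receptor genes chosen by name and matched through their NCBI Gene IDs (Tlr1, Tlr2, Tlr3, Tlr4, Tlr5, Tlr6, Tlr7, Tlr8, Tlr9 and Tlr13), out of 16742 genes listed in any library. All 10 were listed in at least 1 library. RNA was sequenced from 3 libraries, 1 per group, and each library pooled 3 mice of the C57BL/6 strain aged 6 to 8 weeks. The control library came from lin- bone marrow cells of wild-type mice, which remain after cells with mature lineage markers are removed. The TR1 and TR9 libraries came from GFP+ bone marrow cells with the genotype TBLR1-RARa, taken from leukemia mice of the last of 3 rounds of transplantation. In the study, lin- cells received TR and GFP together on 1 MSCV retrovirus, and the spleen cells of a primary leukemic mouse were passed on to further mice. TR1 and TR9 therefore each descend from 1 primary mouse, and the 3 pooled mice of a line are not independent leukemias. Lineage depletion and sorting for GFP were used on different groups, so the effects of isolation and of leukemia cannot be told apart.

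Toll-like receptors are membrane proteins that bind molecules of microbes through leucine-rich repeats and signal through a TIR domain inside the cell. Tlr1, Tlr2, Tlr4, Tlr5 and Tlr6 act mainly at the cell surface, and Tlr3, Tlr7, Tlr8, Tlr9 and Tlr13 bind nucleic acids in endosomes. Most of them signal through the adaptor MyD88, Tlr3 signals through TRIF, and Tlr4 uses both. In bone marrow these receptors are best known in monocytes, macrophages, neutrophils and dendritic cells.

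Expected counts, which are estimated reads per gene and need not be whole, summed to between 5129662 and 5571409 per library, so members were measured by few counts, from 0 to 405. FPKM, fragments per transcript length and library size, was used for levels. A gene was called, and is written to have risen or fallen, when an exact Poisson test of its counts in a pair of libraries reached an adjusted p (Benjamini-Hochberg over all genes) of at most 0.001 and its FPKM changed by at least 1 on the log2 scale. This test compares the libraries, not the conditions, and no difference here has a replicate check. Ratios are of FPKM unless counts are named, and the 95% exact interval beside a ratio is that of the counts per library total and covers counting error only. In bulk RNA, fewer cells that express a gene and less RNA per cell cannot be told apart.

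In TR1 against control, 5 of the 10 members rose (Tlr1, Tlr4, Tlr6, Tlr7 and Tlr13), 1 fell (Tlr9) and 4 were not called. Over all 16282 genes tested in that pair, 8.12% rose and 13.2% fell. In TR9 against control, 2 members rose (Tlr4 and Tlr7), 2 fell (Tlr2 and Tlr9) and 6 were not called, where 9.48% of 16303 genes rose and 10.9% fell. In TR9 against TR1, no member rose and 4 fell (Tlr1, Tlr2, Tlr6 and Tlr7), where 4.41% of 15706 genes rose and 2.34% fell. The median log2 ratio of the members was 1.23 in TR1 and 0.61 in TR9 against control, beside −0.29 and −0.12 for all genes. Tlr3 and Tlr5 were near 0 in these libraries, and with members at or under 3 counts set to their bound the medians were 1.23 and 0.16. With the exact test of edgeR and a biological coefficient of variation assumed at 0.4, none of these calls held. At 0.2, the calls of Tlr9 against control, of Tlr13 in TR1 and of Tlr1, Tlr6 and Tlr7 in TR9 against TR1 were lost. The TR1 and TR9 comparisons share the control library, so their values are given side by side without a count of shared calls as a result.

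**Figure D1:**
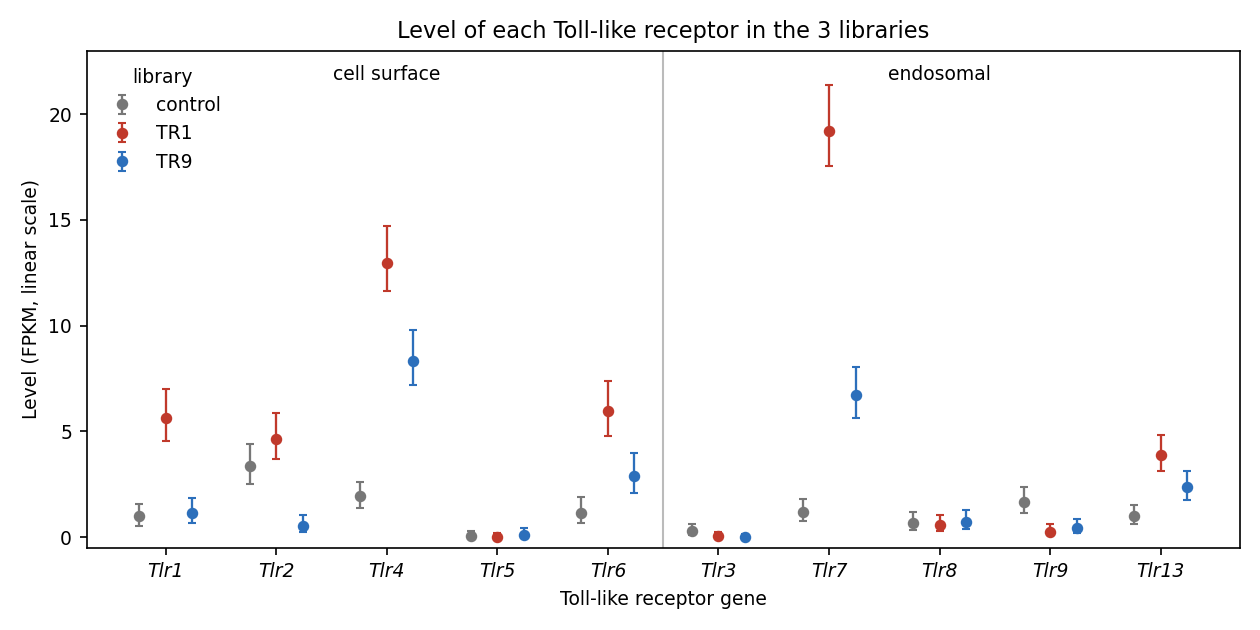
Level of each Toll-like receptor in the 3 libraries, as FPKM on the y axis, with the cell surface receptors on the left and the endosomal ones on the right of the x axis. Points are the libraries control, TR1 and TR9 and bars are 95% exact Poisson intervals of the count. The library with the highest level of Tlr7 was TR1, at 19.22 FPKM, and that with the highest level of Tlr9 was control, at 1.67 FPKM.

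Tlr4, the receptor for bacterial lipopolysaccharide, had 41 (control), 281 (TR1) and 166 (TR9) counts, with levels of 1.93, 12.98 and 8.34 FPKM. Both TR libraries lay above control, and their intervals did not reach that of control. Per library total the counts were 6.75-fold higher in TR1 and 4.33-fold higher in TR9. The log2 FPKM ratios were 2.75 (interval 2.28 to 3.27) and 2.11 (1.61 to 2.65). TR9 against TR1 gave −0.64 (−0.93 to −0.36), which was not called. Tlr4 lies on the plus strand of chromosome 4 (chr4:66827584-66930284, GRCm38).

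Tlr2, which binds bacterial lipoproteins as a dimer with Tlr1 or Tlr6, had 53 (control), 75 (TR1) and 8 (TR9) counts. Its levels were 3.35, 4.65 and 0.54 FPKM, so TR9 alone was low. In TR9 the count per library total was 6.19-fold lower than in control (log2 FPKM ratio −2.63, −3.91 to −1.55) and 8.63-fold lower than in TR1 (−3.11, −4.37 to −2.06). The TR1 ratio of 0.47 (−0.05 to 1.01) was not called. Tlr2 was the highest member in control and ranked below Tlr1 and Tlr6, its dimer partners, in both TR libraries. In TR1 its interval overlapped those of both partners, and in TR9 it overlapped that of Tlr1 but not that of Tlr6. Tlr2 is a gene of the minus strand of chromosome 3 (chr3:83836272-83841767, GRCm38).

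Tlr1 and Tlr6 are neighbours on the minus strand of chromosome 5 (chr5:64924679-64933563 and chr5:64952031-64960097, GRCm38), with 18467 bases between them. Tlr1 had 16.46 (control), 87.08 (TR1) and 16.28 (TR9) counts, at 0.99, 5.65 and 1.16 FPKM. It rose in TR1 (2.51, 1.64 to 3.29), was at 0.23 in TR9 (−0.997 to 1.19), and fell in TR9 against TR1 (−2.28, −3.19 to −1.54). Tlr6 had 16.54, 86.92 and 38.72 counts in the same order, at 1.16, 5.97 and 2.89 FPKM. It rose in TR1 (2.36, 1.57 to 3.18), had 1.32 in TR9 (0.44 to 2.21, adjusted p = 0.00437 by the exact Poisson test, not called), and fell in TR9 against TR1 (−1.05, −1.62 to −0.48), a call that was lost with TPM scaling at −0.93. For Tlr6 the order was therefore control, TR9, TR1 from low to high, while for Tlr1 TR1 alone was high and the interval of TR9 against control included 0.

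The split of reads between these neighbours is uncertain, since the deposited counts of both were not whole and their sum was: 33 (control), 174 (TR1) and 55 (TR9) counts. Their coding sequences were identical at 1798 of 2329 aligned bases (77.2%), where every other pair of members had 59.5% to 66.2%. The longest run of identical bases was 229, against 10 to 16 in the other pairs, and 454 of the 2336 windows of 50 bases in Tlr1 (19.4%) also occurred in Tlr6. The run is shown because a read that falls in it cannot be given to either gene. It lies in 1 coding exon of each gene, at chr5:64925537-64925765 in Tlr1 and chr5:64953828-64954056 in Tlr6 (GRCm38, minus strand), and is coding bases 1468 to 1696 of Tlr1 and 1507 to 1735 of Tlr6.
Tlr1 and Tlr6 shared run: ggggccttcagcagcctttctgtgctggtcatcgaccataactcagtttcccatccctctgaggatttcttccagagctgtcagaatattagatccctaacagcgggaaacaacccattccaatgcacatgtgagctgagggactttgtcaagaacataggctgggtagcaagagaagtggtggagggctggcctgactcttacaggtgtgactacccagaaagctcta
Tlr1 took 49.9% of the sum in control, 50.05% in TR1 and 29.6% in TR9. As 1 unit the pair had a log2 ratio of counts per library total of 2.38 in TR1 (1.83 to 2.96), 0.83 in TR9 (0.19 to 1.503) and −1.54 in TR9 against TR1 (−2.01 to −1.10). The listed length of Tlr1 also differed between the libraries, at 3021, 2752.19 and 2721 bases in control, TR1 and TR9, so its FPKM ratio and its count ratio differ slightly.

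Tlr5, the receptor for bacterial flagellin, had 1 (control), 0 (TR1) and 2 (TR9) counts. Every library was under the floor of 3 counts, which was 0.538 to 0.585 CPM (counts scaled to library total), so no ratio is given. Tlr5 lies on the plus strand of chromosome 1 (chr1:182954788-182976044, GRCm38).

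Tlr7, an endosomal receptor for RNA, had 25 (control), 405 (TR1) and 130 (TR9) counts, and its TR1 count was the highest of any member. The levels were 1.21, 19.22 and 6.71 FPKM, and the intervals of all 3 libraries were apart. Per library total, Tlr7 was 16.0-fold higher in TR1 and 5.56-fold higher in TR9 than in control. The log2 FPKM ratios were 3.99 (3.41 to 4.64) and 2.47 (1.85 to 3.16). TR9 was 2.87-fold below TR1 (−1.52, −1.82 to −1.23).

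Tlr8, the X-linked neighbour of Tlr7, had 12, 10 and 12 counts in control, TR1 and TR9, and 0.69, 0.56 and 0.74 FPKM. The log2 ratios were −0.30 in TR1 (−1.65 to 1.05) and 0.10 in TR9 (−1.19 to 1.38), so with these counts a change of about 1 on the log2 scale in either direction was within counting error. Only 40599 bases separate Tlr8 (chrX:167242696-167264329) from Tlr7 (chrX:167304929-167330558), both on the minus strand in GRCm38. These adjacent genes of the family stood far apart in level in both TR1 and TR9.

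Tlr13, which binds bacterial ribosomal RNA, had 22 (control), 88 (TR1) and 49 (TR9) counts, at 0.99, 3.9 and 2.36 FPKM. It rose in TR1, with 3.94-fold more counts per library total (log2 FPKM ratio 1.98, 1.29 to 2.72). In TR9 the ratio was 1.25 (0.50 to 2.05) with an adjusted p of 0.00131 by the exact Poisson test, just past the limit, and it was not called, though it was with TMM scaling (adjusted p = 0.000501). TR9 against TR1 gave −0.72 (−1.26 to −0.21), also not called. Tlr13 is on the plus strand of the X chromosome (chrX:106143204-106160493, GRCm38).

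The 3 X-linked members stand beside a difference in sex-linked RNA between the pools. Ddx3y had 438 counts in control against 2 in TR1 and 3.05 in TR9, and Uty had 256.5 against 0 and 0. Xist had 38.21 (control), 54.61 (TR1) and 211.36 (TR9) counts. The sample labels do not give the sex of the mice. In every comparison with control, this difference and leukemia cannot be told apart. Its part in the values of Tlr7, Tlr8, Tlr13 and the other members was not tested.

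Tlr9, the receptor for unmethylated CpG DNA, had 32 (control), 5 (TR1) and 8 (TR9) counts, and so was high in control alone. Its levels were 1.67, 0.26 and 0.45 FPKM. The count per library total was 6.50-fold lower in TR1 (log2 FPKM ratio −2.68, −4.42 to −1.33) and 3.74-fold lower in TR9 (−1.89, −3.23 to −0.75). The TR9 call sat at the limit, with an adjusted p of 0.000946 by the exact Poisson test, and was lost under TMM scaling (adjusted p = 0.00181). TR9 against TR1 was 0.79 (−0.996 to 2.76). Tlr9 is a compact gene on the plus strand of chromosome 9 (chr9:106222598-106226883, GRCm38).

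Tlr3, the receptor for long RNA duplexes, had 7 (control), 1 (TR1) and 0 (TR9) counts, or 0.29, 0.04 and 0 FPKM. Neither TR library was called against control. The TR1 log2 ratio was −2.86 with an interval of −8.32 to 0.13, and against the floor of 3 counts TR9 was at least 2.18-fold lower. Tlr3 lies on the minus strand of chromosome 8 (chr8:45395665-45411080, GRCm38). Of the remaining mouse receptors of the family, Tlr12, which binds a protozoan profilin, had 22 (control), 1 (TR1) and 0 (TR9) counts and fell in both. The TR1 log2 ratio of Tlr12 was −4.39 (−9.85 to −1.85) and TR9 was at least 6.85-fold lower. Tlr11, its partner, had 2 counts in control and 0 in TR1 and TR9.

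**Figure D2:**
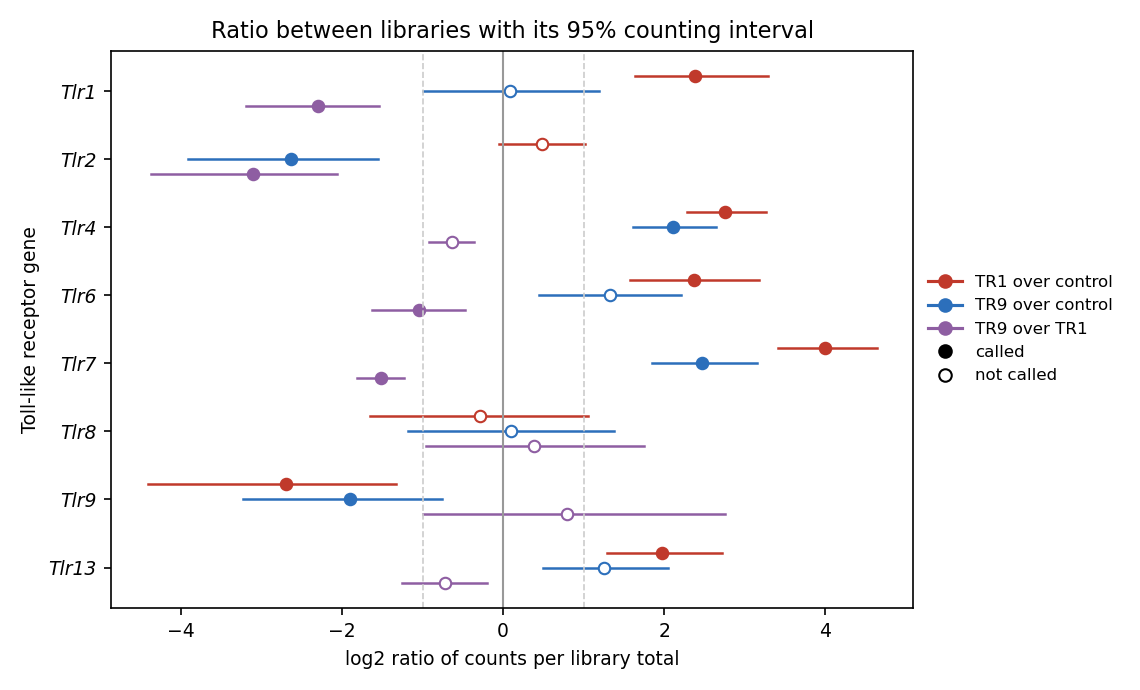
Log2 ratio of counts per library total on the x axis for 8 receptors on the y axis, for TR1 over control, TR9 over control and TR9 over TR1, with 95% counting intervals as lines, called values filled and dashed lines at 1 and −1. Tlr7 lies furthest to the right, in TR1 over control, Tlr2 furthest to the left, in TR9 over TR1 at −3.11, and Tlr3 and Tlr5 are left out because each is at 0 in a library.

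Ordered by FPKM, control began with Tlr2 and Tlr4, and Tlr2 was above Tlr4 by more than counting error. From Tlr4 downward through Tlr9, Tlr7, Tlr6, Tlr1, Tlr13, Tlr8, Tlr3 and Tlr5, no gene in control differed from its neighbour in the order beyond counting error. In TR1 the order was Tlr7, Tlr4, Tlr6, Tlr1, Tlr2, Tlr13, Tlr8, Tlr9, Tlr3 and Tlr5, and the steps from Tlr7 to Tlr4, from Tlr4 to Tlr6 and from Tlr13 to Tlr8 exceeded counting error. In TR9 the order was Tlr4, Tlr7, Tlr6, Tlr13, Tlr1, Tlr8, Tlr2, Tlr9, Tlr5 and Tlr3, with steps beyond counting error from Tlr7 to Tlr6 and from Tlr13 to Tlr1.

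Summed over the 10 members, there were 226 (control), 1039 (TR1) and 430 (TR9) counts, or 41.2, 186 and 83.8 CPM. The summed counts had a log2 ratio of 2.18 in TR1 (1.97 to 2.39), 1.03 in TR9 (0.79 to 1.26) and −1.15 in TR9 against TR1 (−1.32 to −0.99). The surface receptors held 128, 530 and 231 of these counts and the endosomal receptors 98, 509 and 199 in control, TR1 and TR9. The sums rest on few genes. Tlr2 held 23.5% of the family's counts in control (18.1% to 29.5%, exact Clopper-Pearson interval), Tlr7 held 39.0% in TR1 (36.0% to 42.0%), and Tlr4 held 38.6% in TR9 (34.0% to 43.4%). In control, Tlr7 held 11.1% (7.29% to 15.9%) and Tlr4 18.1% (13.3% to 23.8%).

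**Figure D3:**
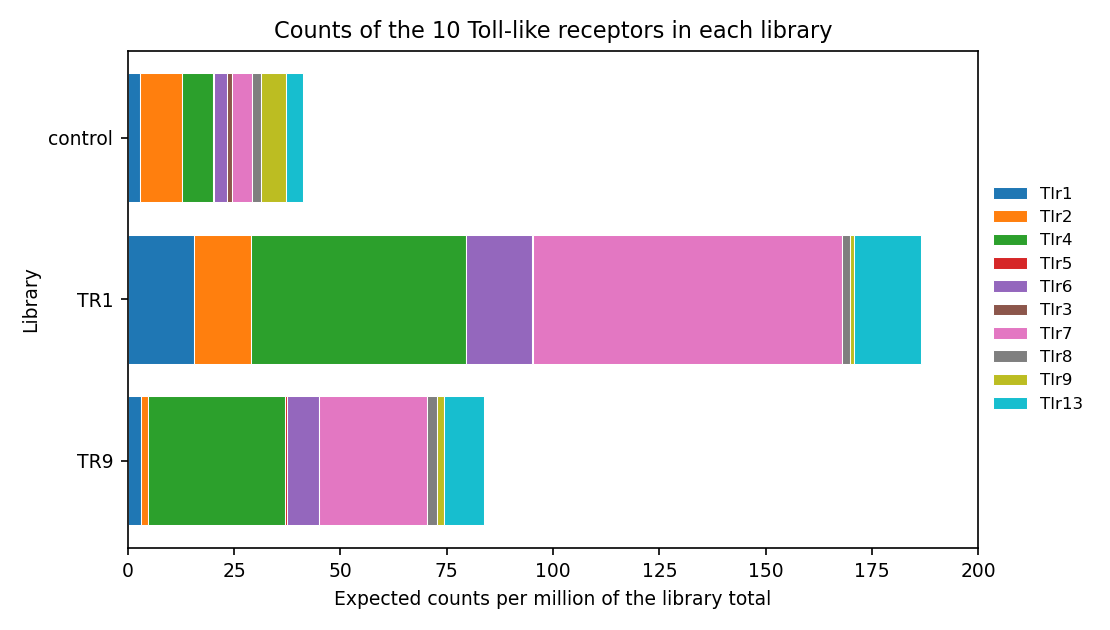
CPM on the x axis for the 10 receptors, stacked along 1 bar for each of the 3 libraries on the y axis, with 1 colour per receptor. The bars reach 41.2 (control), 186 (TR1) and 83.8 (TR9) CPM, and Tlr4 and Tlr7 fill most of the TR bars.

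The 250 bases upstream of the RefSeq start were read for 8 of the 10 members (GRCm38.p6). The gene spans given above are from GENCODE, and their starts can differ from those of RefSeq. The window used for Tlr3 lay wholly within its GENCODE span, and those of Tlr1, Tlr2, Tlr6 and Tlr13 overlapped theirs in part. Tlr4 and Tlr7 were not matched. Both strands were searched for the retinoid receptor motif AGGTCA, the PU.1 core GAGGAA, the C/EBP motif TTGCNNAA and the kappa B motif, and overlapping matches were marked together. AGGTCA was present for 3 of the 8 (Tlr2, Tlr5 and Tlr9), beside 14.0% of 32851 windows of the same length. GAGGAA was present for 4 (Tlr1, Tlr8, Tlr9 and Tlr13), beside 23.3%. TTGCNNAA was present for 2 (Tlr3 and Tlr8), beside 9.56%, and kappa B for 2 (Tlr2 and Tlr3), beside 7.25%. Tlr1 and Tlr6 each had 2 windows, of which 1 was used, and the unused window of Tlr6 held TTGCNNAA. A match is a string of letters and not a bound site. The windows of Tlr2, Tlr9 and Tlr13 are shown 5′ to 3′ on the strand of the gene because these receptors took different paths: Tlr2 fell in TR9 alone, Tlr9 fell in both TR libraries, and Tlr13 rose in TR1. They are chr3:83841609-83841858 (minus strand), chr9:106222348-106222597 (plus strand) and chrX:106143025-106143274 (plus strand). Capitals mark the motif letters.
Tlr2 upstream window: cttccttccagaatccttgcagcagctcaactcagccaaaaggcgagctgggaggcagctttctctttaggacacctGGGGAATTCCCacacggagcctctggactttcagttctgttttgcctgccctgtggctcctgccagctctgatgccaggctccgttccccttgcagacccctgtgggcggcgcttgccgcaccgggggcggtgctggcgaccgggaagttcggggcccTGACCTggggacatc
Tlr9 upstream window: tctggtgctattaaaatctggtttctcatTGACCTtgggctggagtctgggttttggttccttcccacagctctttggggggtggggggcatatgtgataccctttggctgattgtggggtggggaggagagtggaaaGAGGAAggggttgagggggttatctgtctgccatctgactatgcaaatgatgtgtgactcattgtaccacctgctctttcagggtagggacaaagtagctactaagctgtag
Tlr13 upstream window: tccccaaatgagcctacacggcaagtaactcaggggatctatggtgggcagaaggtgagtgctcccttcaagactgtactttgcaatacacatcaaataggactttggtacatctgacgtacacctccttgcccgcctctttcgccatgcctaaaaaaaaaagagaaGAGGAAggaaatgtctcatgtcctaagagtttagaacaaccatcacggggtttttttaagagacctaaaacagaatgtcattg
In the Tlr2 window overlapping kappa B matches on both strands begin 173 and 172 bases before the RefSeq start. AGGTCA lies 15 bases before that start on the opposite strand, which is inside the GENCODE span of Tlr2. In the Tlr9 window AGGTCA lies 221 bases before the start on the opposite strand and GAGGAA 112 bases before it. In the Tlr13 window GAGGAA begins 83 bases before the start.

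The other genes of the pathway were counted by role. For comparison, 8.12% of all genes tested rose and 13.2% fell in TR1 against control. In TR9 against control 9.48% rose and 10.9% fell. Of the 9 listed co-receptors and ligand carriers, 2 rose and 3 fell in TR1, and 2 rose and 3 fell in TR9. Cd14, which passes lipopolysaccharide to Tlr4, had 7 (control), 73 (TR1) and 27 (TR9) counts and rose in both (3.36 and 2.04), and it fell in TR9 against TR1 (−1.31). The TR9 call of Cd14 was lost with TPM scaling, at 1.93. Lbp, which carries lipopolysaccharide, had 258.36, 1192.62 and 909.61 counts and also rose in both (2.18 and 1.91). Ly96 (MD-2), which Tlr4 needs to bind its ligand, had 7, 4 and 10 counts and was not called. Cd180, a Tlr4 relative that restrains it, fell from 168 counts to 1 and 5. Ly86 (MD-1), the partner of Cd180, fell from 164 counts to 10 and 22 (−4.06 and −2.80), and Cd36, a scavenger receptor that assists Tlr2, fell from 35 to 2 and 4. Tlr4 and its carriers Cd14 and Lbp thus rose while the Cd180 pair fell.

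Of 18 genes for receptor trafficking and ligand processing, 3 rose and 2 fell in TR1, and 3 rose and 3 fell in TR9. Unc93b1, the chaperone that moves endosomal receptors out of the endoplasmic reticulum, had 624 (control), 469 (TR1) and 278 (TR9) counts, and it fell in TR9 (−1.07) but not in TR1 (−0.45). The TR9 call was lost under TMM scaling, at −0.96. Grn, whose product helps deliver CpG DNA to Tlr9, rose in both (1.57 and 1.99). Lgmn, a protease that cuts Tlr9, had 81, 12 and 21 counts and fell in both (−2.78 and −1.85). Rnaset2a and Rnaset2b, RNases known to release ligands for human TLR8, were called higher in both, but they are near-identical copies and their counts were not whole, so their split is uncertain. The TR1 call of Rnaset2a was lost with TPM scaling, at 0.82.

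Of 29 adaptors and kinases, 3 rose and 5 fell in TR1, and 5 rose and 4 fell in TR9. The median log2 ratios of this list were −0.21 and 0.04, near those of all genes. Myd88, the main adaptor, had 209 (control), 540 (TR1) and 250 (TR9) counts, rose in TR1 (1.34) and was at 0.35 in TR9. Ticam1 (TRIF), the adaptor of Tlr3 and Tlr4, had 98, 80 and 107 counts and was not called. Tirap, the bridge from Tlr2 and Tlr4 to MyD88, had a log2 ratio of 1.08 and 1.01 and rose in both, at the limit of the call, and lost both calls with TPM scaling (0.86 and 0.90). Ikbke, a kinase of the interferon branch, rose in both (1.64 and 1.72). Ticam2 (TRAM), which carries Tlr4 signals to TRIF, had 164, 58 and 33 counts and fell in both (−1.53 and −2.22). Traf6, the ubiquitin ligase below MyD88, fell in both (−1.80 and −1.19), as did Irf5, a factor activated by Tlr7 and Tlr9 (−2.45 and −1.39).

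Of 13 listed inhibitors, 2 rose and 1 fell in TR1, and 3 rose and 1 fell in TR9. Dusp1, a phosphatase that ends MAPK signals, had 36.9 (control), 281 (TR1) and 243 (TR9) counts and rose in both (2.90 and 2.82), while Il1rl1 fell in both. Of 24 genes that Toll-like receptors can induce, 8 rose and 3 fell in TR1, and of 22 tested in TR9, 6 rose and 3 fell. With genes at or under 3 counts set to their bound, the inducible genes had a median of 0 for TR1 and 0.26 for TR9. Lcn2, which binds bacterial siderophores and is also a secondary granule protein of neutrophils, had 29, 5044 and 1109 counts and rose in both (7.42 and 5.35). Nfkbia, an NF-kappaB inhibitor that NF-kappaB itself induces, had 92, 1057 and 304 counts and rose in both (3.50 and 1.82). Ptgs2 (COX-2) had 4, 43 and 36 counts and rose in both (3.44 and 3.30). Il1a went the other way, with 53 control counts and none in TR1 (at least 17.9-fold lower) or TR9 (at least 16.5-fold lower).

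**Figure D4:**
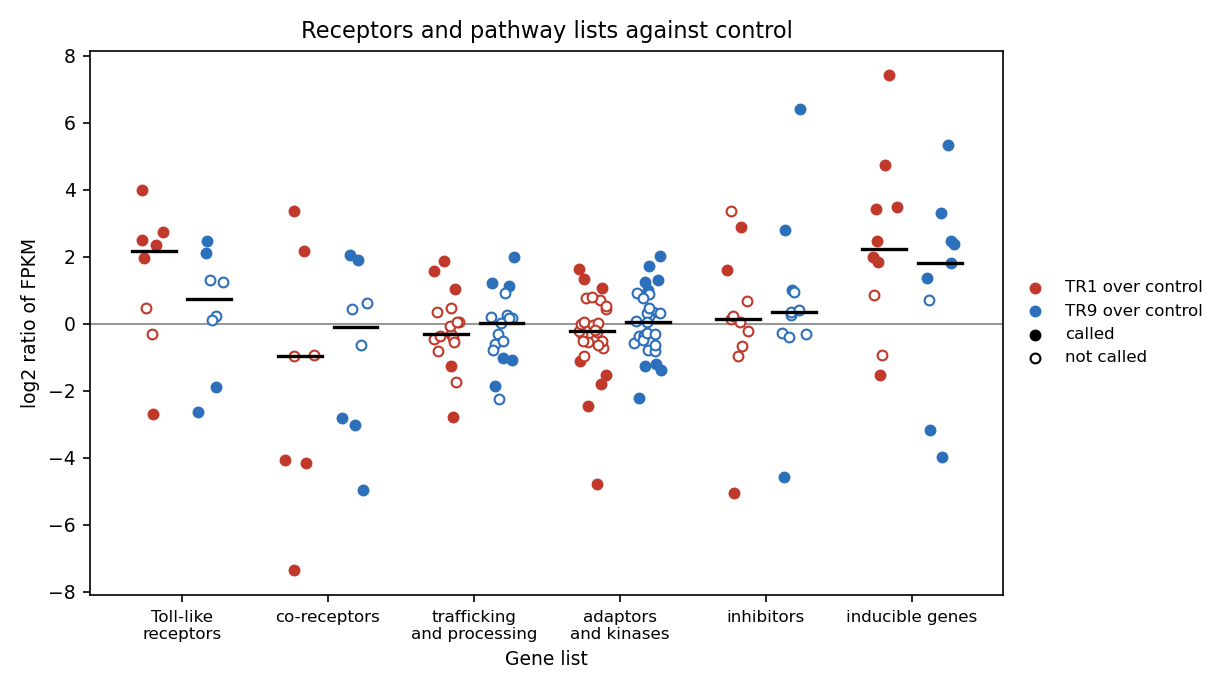
Log2 ratio of FPKM to control on the y axis for the receptors and 5 pathway lists on the x axis, with 1 point per gene that had 10 or more counts in a library of the pair and none at 0. Filled points were called and black lines are medians of the points drawn, 2.17 in TR1 and 0.74 in TR9 for the 8 receptors shown, against −0.21 and 0.04 for the 29 adaptors and kinases. Tlr3, Tlr5 and, of the inducible genes, Il1a are among those not drawn. Over all 10 receptors, with those at or under 3 counts set to their bound, the medians were 1.23 in TR1 and 0.16 in TR9.

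Cell markers differed between the libraries in both directions. Over all genes tested, 8.12% rose and 13.2% fell in TR1 against control, and 9.48% rose and 10.9% fell in TR9. All 13 neutrophil markers rose in TR1 and 10 rose in TR9, and their summed level was 4211 FPKM in control, 42691 in TR1 and 32076 in TR9. Of 15 monocyte and macrophage markers, 5 rose and 8 fell in TR1, and 4 rose and 10 fell in TR9, with summed levels of 823, 6532 and 6998 FPKM. Ly6c2 alone held 500, 5593 and 6296 FPKM of these sums, the other 14 markers summed to 323, 939 and 702 FPKM, and the median log2 ratio of the list was −1.88 in TR1 and −1.31 in TR9. Csf1r had 510, 141 and 81 counts and fell in both. Cd68 went the other way, with 117, 879 and 298 counts. Besides Ly6c2, the markers of this list that rose in both were Cd68, Vcam1 and F13a1, and Adgre1 rose in TR1 alone. All 9 listed erythroid and all 8 megakaryocyte markers fell in both. Of 9 progenitor markers 1 rose and 7 fell in TR1, and 1 rose and 4 fell in TR9, and of 9 stroma markers 1 rose and 6 fell in TR1, and 2 rose and 6 fell in TR9. Of 8 listed T and NK cell markers, 1 rose and 1 fell in TR1, and 1 fell in TR9. Beside Tlr9, which dendritic cells and B cells are known to express, markers of those cells moved in both directions. Of 9 listed conventional dendritic cell markers, 1 rose and 3 fell in TR1 and 4 fell in TR9. Zbtb46, a defining factor, had 87, 0 and 0 counts, Clec9a 90, 5 and 3 and Cd209a 13, 0 and 0. Flt3 rose in TR1 and fell in TR9, with 327, 792 and 126 counts. The other 5 were not called in either TR library. Of these, Wdfy4 had 908, 1055 and 840 counts, Cd8a 6, 15 and 23 and Xcr1 10.73, 7.67 and 7.44. Itgax had 26.53, 20.95 and 13 counts and Itgae 3, 2 and 1. The summed level of 48.9, 60.2 and 26.0 FPKM rested mainly on Flt3 and Wdfy4. Of 8 listed plasmacytoid dendritic cell markers, 1 rose and 2 fell in TR1 and 1 rose in TR9. Their summed level was 120, 82.3 and 129 FPKM, and in control and TR9 it rested mainly on Irf8, Bst2 and Runx2. In TR1 it rested mainly on Bst2, the marker that rose there, at 60.68 FPKM. Irf8 had 1059, 39 and 644 counts and was at 2.46 FPKM in TR1. The low markers of that list were Siglech with 7, 0 and 2 counts, Ly6d with 5, 0 and 0, Ccr9 with 6, 4 and 0 and Cox6a2 with 4, 5 and 1. None of these low markers was called against control. Of 8 listed B cell markers, 1 rose and 2 fell in TR1, and 2 rose and 2 fell in TR9. Cd79b had 69, 0 and 0 counts, Blnk had 17, 0 and 1, and Cd79a and Ms4a1 were at 0 in both TR libraries, while Igll1 had 2, 63 and 847 counts, Vpreb1 had 1, 14 and 20, and Cd22 had 51.06, 52.54 and 52.04. The B cell markers summed to 16.4, 19.0 and 202 FPKM, of which Igll1 held 0.43, 13.3 and 195. The part of these markers in the receptor values was not tested. Rara, the retinoid receptor part of the fusion, which the vector carries, had 58.88 (control), 1167.89 (TR1) and 358.74 (TR9) counts, and reads of the fusion and of the endogenous gene cannot be told apart.

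The genes most like the members over the 3 libraries were sought among 8167 genes with at least 50 counts in every library, by the Euclidean distance of log2 FPKM after centring each gene on its own mean. For Tlr7, which had 2 genes within a distance of 0.25, the nearest were Tspoap1 (distance 0.139; 315, 5012 and 1823 counts), Rara (0.229) and Fn1 (0.312). For Tlr4 they were Ifitm3 (0.0342), Casp4 (0.115) and Sun2 (0.126), and 14 genes lay within 0.25. For Tlr13 they were Foxred2 (0.00981), Prickle3 (0.0315) and Plp2 (0.0806), with 31 genes within 0.25. With 3 libraries as points, this closeness is a description only. Because they were chosen for this closeness, all 9 genes share the order of Tlr7, Tlr4 and Tlr13, with control lowest and TR1 highest.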

How the data were processed

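RNA-seq of 3 libraries was used, 1 per group, as the sample labels name them, and each pooled 3 mice. After read filtering, the authors used BWA and Bowtie for mapping and RSEM for quantification, and deposited for each gene the expected count, without normalization, and the FPKM, scaled for gene length and library total. The transcript length deposited beside them was used for per-length comparisons. The submitters' processing notes name the mm9 build, and tool versions are not given in the sources used here. Coordinates and coding sequences come from GENCODE M21 and promoters from RefSeq, both of GRCm38, and only by gene name, so no coordinate of the files was used.

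Rounded expected counts of each pair of libraries entered a two-sided conditional exact Poisson test in scipy 1.17.1, with Benjamini-Hochberg adjustment over all genes listed in either library. Log2 ratios are of FPKM, with values under 0.01 set to 0.01, and folds are of counts per library total. A gene not listed was taken as 0. Intervals are 95% Clopper-Pearson, and 3 counts were the floor. The lists held 10 co-receptors, 18 trafficking and processing genes, 29 adaptors and kinases, 14 inhibitors and 26 inducible genes. Genes named were all members, Tlr11, Tlr12, Cd14, Ly96, Unc93b1, Myd88, Ticam1, up to 3 genes per list and direction called in both TR libraries with at least 20 counts, and the 3 genes most like each of the 3 members with the most counts. Single marker genes were named with their values in view. One B cell marker is not reported here, and the B cell values leave it out. The members and lists were chosen with earlier results of these data known. Scripts were tested on simulated data. Alternatives were TMM (edgeR 4.0.16, R 4.3.3), median-of-ratios and TPM scaling, a pseudocount of 1 FPKM, a minimum of 10 counts, the exact test of edgeR at a biological coefficient of variation set to 0.2 or 0.4, and a log2 limit of 2. Counts per library total and the sum of Tlr1 and Tlr6 were added after seeing the data. Python 3.11.15, numpy 2.4.6, pandas 2.3.3, matplotlib 3.10.9 and biopython 1.88 were used.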

Additional observations from a re-analysis of the deposited data

Results flagged for a closer look

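Several values differed between the TR1 and TR9 leukemias when those libraries were tested against each other directly, by the exact Poisson test of their counts. Among the receptors, the log2 ratio of TR9 to TR1 was −2.28 for Tlr1, −3.11 for Tlr2, −1.05 for Tlr6 and −1.52 for Tlr7. Among the other named genes of the pathway it was −1.31 for Cd14, −2.06 for Lcn2 and −1.68 for Nfkbia. These 7 were lower in TR9, but the pathway as a whole did not go 1 way. Over all 15706 genes tested in TR9 against TR1, 4.41% were called higher and 2.34% lower. Of the 29 adaptors and kinases, 4 were called higher and 1 lower. Irf8, a factor of the interferon branch, was higher in TR9 by 4.17 on the log2 scale. Of 18 inducible genes tested, 1 was called higher and 5 lower. Each leukemia is 1 library, so the spread between mice of a line is unknown.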

How the results depend on the processing

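Of 234 member ratios recomputed under the alternatives, 201 kept their direction and call, 29 lost the call, 3 gained it and 1 reversed. With edgeR's exact test at an assumed variation of 0.4, no member was called in any comparison (0 against 5 higher and 1 lower in TR1, 2 higher and 2 lower in TR9, and 4 lower in TR9 against TR1). At 0.2, 0 members were lower in TR1, 1 (Tlr2) in TR9 and 1 (Tlr2) in TR9 against TR1. The 2 members lower in TR9 became 1, Tlr2, with TMM, median-of-ratios, a pseudocount of 1 FPKM or an absolute log2 ratio of at least 2, and the last left 2 lower in TR9 against TR1 (Tlr1 and Tlr2). Tlr13 in TR9 became called with TMM, median-of-ratios and a minimum of 10 counts, and Tlr6 in TR9 against TR1 lost its call with TPM and with the pseudocount. Values near 0 reversed with TPM for Tlr8 in TR9 against control (−0.0081) and, in TR9 against TR1, for Tirap (0.041) and Dusp1 (0.028), and with TMM and median-of-ratios for Ikbke (−0.051 and −0.064). The cause of these changes was not tested. TMM raised every log2 ratio to control by 0.24 in TR1 and 0.11 in TR9, and TPM lowered them by 0.23 and 0.11.
No replicate could be left out and no paired analysis was possible because each group has 1 library. Depth limits Tlr3, Tlr5, Tlr8 and Tlr9 most.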
